A study of Mus musculus with 9 samples.

Results

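Prostaglandins and leukotrienes are made from arachidonic acid, and the genes described here are 10 that carry the main steps in macrophages. They were *Pla2g4a*, *Ptgs1*, *Ptgs2*, *Ptges*, *Hpgds*, *Tbxas1*, *Alox5*, *Alox5ap*, *Ptger2* and *Ptger4*. They were chosen by name from the 54532 genes of the expression table, by a rule that uses no measured value, although earlier results of these data were known when the names were chosen. Each name matched 1 row. RNA-seq had been run on RAW264.7 cells, a virus-transformed macrophage line that the labels trace to mouse ascites and give as WT. There were 9 libraries in 3 groups of 3. Control cells were untreated, and the labels give no time for them. LPS-treated cells received lipopolysaccharide, the outer-membrane component of Gram-negative bacteria that activates macrophages through TLR4, at 1 μg/ml for 6 h. LPS + G-CDs cells received the same LPS together with 400 μg/ml of G-CDs, carbon nanoparticles made from *Glycyrrhiza*, for 6 h. The treatment field of the LPS + G-CDs libraries names LPS alone, and their titles name G-CDs. The sources do not say whether the libraries of a group came from separate cultures, so p-values measure the spread between these libraries, which may be technical. G-CDs were not given without LPS.

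In this pathway a phospholipase A2 first frees arachidonic acid from membrane lipids. Cyclooxygenases turn it into prostaglandin H2, which separate synthases convert into prostaglandin E2, prostaglandin D2 or thromboxane. In the parallel branch, 5-lipoxygenase and its activating protein make leukotriene A4. Cyclooxygenase-1 (*Ptgs1*) is known as the enzyme present in resting cells and cyclooxygenase-2 (*Ptgs2*) as the one that inflammatory stimuli induce. Macrophages are a main source of prostaglandin E2, the mediator of fever and inflammatory pain.

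The 2 cyclooxygenase genes moved in opposite directions in these cells, so the 250 bases before each of their transcription start sites are shown first. The sequences are from RefSeq on build GRCm38.p6, on the plus strand, at chr1:150099781-150100030 for *Ptgs2* and chr2:36230176-36230425 for *Ptgs1*. Capitals mark the letters that matched a searched motif.
Ptgs2: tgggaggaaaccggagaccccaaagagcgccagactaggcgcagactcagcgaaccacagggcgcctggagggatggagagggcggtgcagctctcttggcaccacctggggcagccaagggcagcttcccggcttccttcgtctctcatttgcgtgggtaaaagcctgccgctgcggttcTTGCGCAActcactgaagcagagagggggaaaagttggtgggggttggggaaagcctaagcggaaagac
Ptgs1: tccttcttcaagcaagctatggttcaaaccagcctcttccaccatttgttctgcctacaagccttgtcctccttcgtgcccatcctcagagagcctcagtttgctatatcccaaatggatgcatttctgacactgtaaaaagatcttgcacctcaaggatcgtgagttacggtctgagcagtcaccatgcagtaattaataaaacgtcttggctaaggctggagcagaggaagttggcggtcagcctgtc
The motifs searched, on both strands and from 250 bases before to 50 bases after the start, were TATAA, an NF-κB motif (3 G, 2 bases of any kind, 3 T, 2 C), TTGCNNAA for C/EBP, ACGTCA, the core of a cyclic AMP response element, TGANTCA for AP-1 and TGACNNNGC as an antioxidant response element. The *Ptgs2* window held the C/EBP letters TTGCGCAA, 69 to 62 bases before the start, and ACGTCA at bases 13 to 18 after it. Positions are counted from the RefSeq start, and whether transcription in these cells starts there was not tested. The *Ptgs1* window held none of these motifs. Of all 32851 promoter windows of this length, 10.8% held the C/EBP letters, 7.51% ACGTCA, 24.9% TATAA, 1.63% the NF-κB letters, 7.81% the AP-1 letters and 12.4% the antioxidant response letters. A match describes letters and is not a binding site, and no match says only that these letters were not in this window.

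Levels are given as FPKM, fragments per unit of transcript length and per unit of library size, as deposited, which can be compared between genes because they are per length. The libraries held 14752400 to 17312255 reads on genes, as recovered from the FPKM values. The library size that the FPKM values imply was 1.11 to 1.14 times these reads in control. It was 0.929 to 0.936 times in LPS and 0.880 to 0.980 times in LPS + G-CDs. FPKM ratios between groups carry this difference in scaling, whose cause was not tested. Macrophage markers were present, with 9 of 10 at an FPKM of 1 or more in at least 1 library, including *Adgre1*, *Cd68*, *Csf1r* and *Lyz2*. Their summed level was 2664 to 3660 FPKM in control, 3872 to 4089 in LPS and 3248 to 5342 in LPS + G-CDs. The markers went both ways with LPS, with 4 of the 9 tested called higher, among them *Cd14* (436 FPKM in control and 2292 in LPS on average), and *Csf1r* and *Lyz2* called lower. Of the 5 mast cell markers, 4 were at 0 in all 9 libraries, among them *Fcer1a* and *Cpa3*, and the list summed to 0 FPKM in every control and LPS library and to at most 0.0240 in LPS + G-CDs. Of the 4 neutrophil markers, *Ly6g*, *Elane* and *Mpo* were at 0 in all libraries, and *Camp* had 0 to 10 reads per library, at most 0.956 FPKM. Log2 profiles correlated at 0.940 to 0.969 between control libraries, at 0.987 to 0.988 between LPS libraries and at 0.935 to 0.975 between LPS + G-CDs libraries. The LPS + G-CDs libraries also differed among themselves with gene length. Relative to the group mean, the shortest 2897 genes (median 882 bases) had a median log2 deviation of −0.27 in replicate 1 and 0.30 in replicate 3. The longest 2897 (median 8386 bases) sat at 0.24 and −0.23. Between LPS libraries the same medians stayed within −0.02 and 0.02, and the control replicate 3 sat at 0.18 and −0.19.

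**Figure D1:**
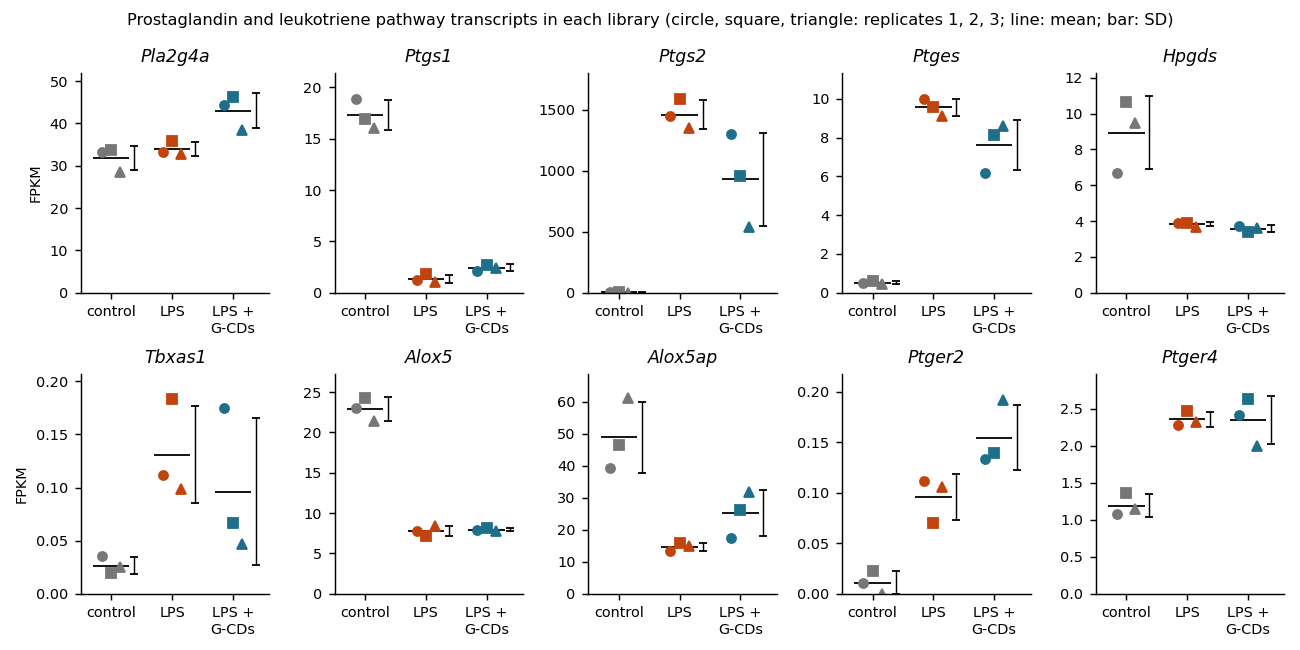
FPKM (y axes, linear and starting at 0) of the 10 genes in each of the 9 libraries, by group; circles, squares and triangles are replicates 1, 2 and 3, lines are means and bars are SD (n = 3). *Ptgs2* rose from about 2 FPKM to 1350 FPKM or more with LPS while *Ptgs1* fell, and the LPS + G-CDs libraries ranged from 539 to 1302 FPKM for *Ptgs2*.

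After 6 h of LPS the cyclooxygenase transcripts had switched from *Ptgs1* to *Ptgs2*, the prostaglandin E2 synthase *Ptges* had risen and the prostaglandin D2 synthase *Hpgds* had fallen. Both leukotriene genes, *Alox5* and *Alox5ap*, had also fallen. The receptor gene *Ptger4* had risen, and *Pla2g4a* was not called. The test was limma on log2(FPKM + 1) over all 9 libraries, with Benjamini-Hochberg adjustment over the 11585 genes at an FPKM of 1 or more in at least 3 libraries, and a gene was called at an adjusted p under 0.05. Of the 10 genes, 8 passed that filter, and *Tbxas1* and *Ptger2* did not. With LPS, 3 of the 8 were called higher, against 15.8% of all genes tested, and 4 were called lower, against 15.6%. The groups did not overlap for 7 of the 8, against 52.5% of all genes tested. The median log2 fold change was −0.46 over the 8 genes and 0.02 over all genes tested. Rescaling the libraries to TPM, in which each library sums to the same total, moved the median of all genes by more than 0.1, to −0.23, and turned the 1827 higher and 1803 lower calls among all genes into 1003 and 3059.

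*Ptgs2* (ENSMUSG00000032487, chromosome 1, 150100031 to 150108227, plus strand) stood at 1.99, 2.67 and 1.67 FPKM in the 3 control libraries. It stood at 1445, 1587 and 1350 FPKM in the LPS libraries. The means were 2.11 ± 0.510 and 1461 ± 119 FPKM (SD, n = 3), a ratio of 693. The difference was 8.89 on the log2(FPKM + 1) scale (SE 0.29, limma adjusted p = 7.65e-08), the 4th largest increase of the 11585 genes. These values rest on 136 to 208 reads in the control libraries and 89851 to 100345 reads in the LPS libraries. Because 1 is added before the log, the log2 difference understates the ratio of a gene that low in control.

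*Ptgs1* (ENSMUSG00000047250, chromosome 2, 36230426 to 36252272, plus strand) stood at 18.9, 16.9 and 16.1 FPKM in control. With LPS it stood at 1.23, 1.79 and 1.06 FPKM. Every control library was far above every LPS library, and the mean in control was 12.7 times that in LPS. Its log2 fold change was −2.96 (SE 0.15, limma adjusted p = 1.05e-06), the 3rd largest decrease of the genes tested. Of its exon bases, 3.81% are also covered by a gene annotated on the other strand, and whether counting used strand is not given in the sources used here.

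The make-up of the cyclooxygenase transcripts followed from these values. *Ptgs2* made up 9.53%, 13.6% and 9.40% of the summed *Ptgs1* and *Ptgs2* FPKM in the control libraries, and 99.9% ± 0.0181 (SD, n = 3) in LPS. The sum itself rose from 19.4 ± 1.58 to 1462 ± 120 FPKM. Resting cells therefore held mostly *Ptgs1* transcripts, and LPS-treated cells nearly only *Ptgs2*.

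*Pla2g4a* (ENSMUSG00000056220, chromosome 1, 149829618 to 149961290, minus strand), the cytosolic phospholipase A2 that releases arachidonic acid, was among the more abundant members before LPS. It stood at 33.2, 33.8 and 28.6 FPKM in control and at 33.3, 35.8 and 32.7 FPKM in LPS. The groups overlapped, and the log2 fold change of 0.09 had a 95% interval of −0.18 to 0.37 (limma adjusted p = 0.614). A change of more than 0.37 in either direction lies outside that interval. The direction of the small estimate turned under TPM and with the length trend removed.

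*Ptges* (ENSMUSG00000050737, chromosome 2, 30889471 to 30929863, minus strand) encodes the inducible microsomal prostaglandin E synthase. It stood at 0.515, 0.613 and 0.429 FPKM in control and at 9.99, 9.56 and 9.12 FPKM in LPS. The LPS libraries lay close together, far above control, with a ratio of means of 18.4. On the log2 scale it rose by 2.80 (SE 0.13, limma adjusted p = 8.83e-07).

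*Hpgds* (ENSMUSG00000029919, chromosome 6, 65117293 to 65144908, minus strand) encodes the hematopoietic prostaglandin D synthase. It stood at 6.69, 10.7 and 9.45 FPKM in control and fell to 3.91, 3.88 and 3.69 FPKM with LPS. Its log2 fold change was −1.02 (SE 0.15, limma adjusted p = 0.00107). The control libraries were spread widely and still lay above every LPS library.

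*Tbxas1* (ENSMUSG00000029925, chromosome 6, 38875404 to 39084585, plus strand), the thromboxane A synthase gene, was near the limit of detection. It had 6, 3 and 4 reads in the control libraries and 14, 23 and 13 in LPS, or 0.0194 to 0.0352 and 0.0983 to 0.183 FPKM. The summed reads, scaled by the library size that the FPKM values imply, were 4.89 times as many in LPS. The exact 95% interval, which covers counting error only, was 2.62 to 9.81. *Tbxas1* was not tested in the filtered fit. Without the filter on low values, its limma adjusted p was 0.108.

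Among the 3 synthase genes *Ptges*, *Hpgds* and *Tbxas1*, *Ptges* gave 5.63% ± 1.41 of the summed FPKM in control and 70.7% ± 0.570 in LPS (SD, n = 3). The ratio of *Ptges* to *Hpgds* was 0.0600 ± 0.0160 in control and 2.50 ± 0.0523 in LPS. *Hpgds* was thus the most abundant of the 3 transcripts in resting cells, and *Ptges* in LPS-treated cells. Of the other prostanoid synthase genes on the wider list, *Ptges2*, *Ptges3* and *Akr1b3* were tested and 0 were called in any of the 3 comparisons. *Ptges3*, the cytosolic prostaglandin E synthase and a chaperone partner, was more abundant than *Ptges* in every group, at 121 ± 17.4, 132 ± 11.9 and 146 ± 14.1 FPKM in control, LPS and LPS + G-CDs (SD, n = 3).

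*Alox5* (ENSMUSG00000025701, chromosome 6, 116410077 to 116461178, minus strand), which encodes 5-lipoxygenase, stood at 23.0, 24.3 and 21.4 FPKM in control. In LPS it stood at 7.75, 7.21 and 8.34 FPKM. All LPS libraries were lower, with a log2 fold change of −1.45 (SE 0.10, limma adjusted p = 1.08e-05). *Alox5ap* (ENSMUSG00000060063, chromosome 5, 149264767 to 149288153, plus strand) encodes FLAP, the membrane protein that presents arachidonic acid to 5-lipoxygenase. It stood at 39.3, 46.3 and 61.1 FPKM in control and at 13.2, 15.7 and 14.8 FPKM in LPS, a log2 fold change of −1.66 (SE 0.23, limma adjusted p = 0.000635). *Alox5ap* was the more abundant of the pair in every library. Its ratio to *Alox5* was 2.16 ± 0.612 in control and 1.89 ± 0.255 in LPS (SD, n = 3), which overlapped. Of the *Alox5ap* exon bases, 13.3% are also covered by *Gm19719* on the other strand, which had 61 reads in the control libraries together and 30 in LPS, against 3713 and 873 for *Alox5ap*.

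*Ptger4* (ENSMUSG00000039942, chromosome 15, 5206661 to 5244187, minus strand) encodes the prostaglandin E2 receptor EP4, which raises cyclic AMP. It stood at 1.07, 1.36 and 1.14 FPKM in control and at 2.29, 2.47 and 2.32 FPKM in LPS. The groups did not overlap, and the log2 fold change was 0.62 (SE 0.12, limma adjusted p = 0.00494). Under TPM it was 0.60 with an adjusted p of 0.0653, so the call was lost there. Over all alternatives the estimate ranged from 0.51 to 0.97. Of its exon bases, 16.5% are shared with *Gm15937* and *Ttc33* on the other strand.

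*Ptger2* (ENSMUSG00000037759, chromosome 14, 44988195 to 45003820, plus strand), the gene of the related receptor EP2, had 1, 2 and 0 reads in control and 8, 5 and 8 reads in LPS. None of the control libraries exceeded 3 reads. The summed reads, 3 against 21, scaled as for *Tbxas1*, gave a ratio of 8.90 (exact interval 2.66 to 46.6, counting error only). Without the filter its limma adjusted p was 0.0332. Its values lie far below the 1 added before the log, which shrinks differences and spread, so this p does not measure counting error. *Ptger4* held 99.1% ± 0.821 of the summed FPKM of both receptor genes in control and 96.1% ± 1.03 in LPS.

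**Figure D2:**
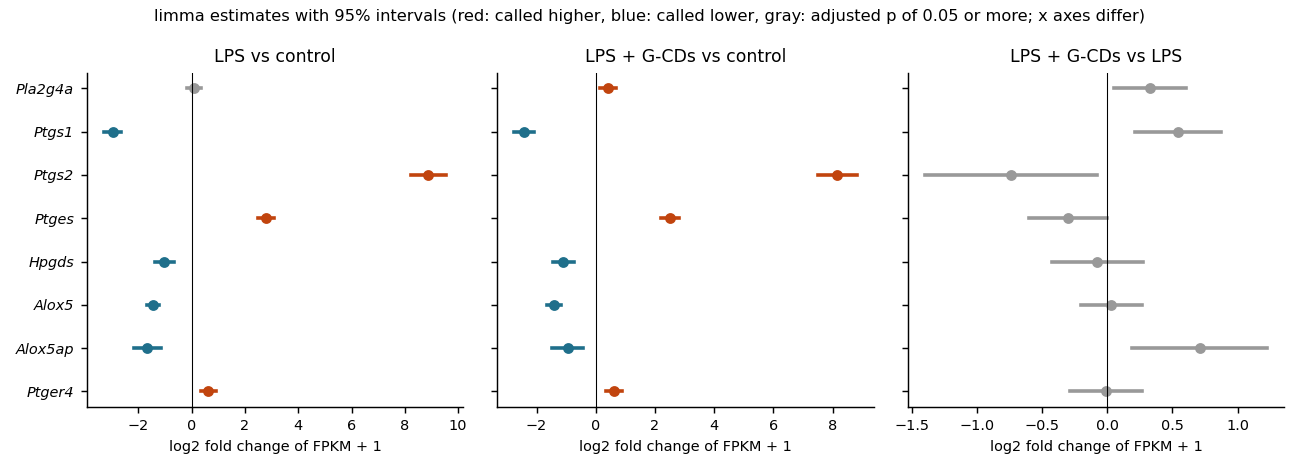
log2 fold changes of FPKM + 1 (x axes, which differ between panels) with 95% intervals from limma for the 8 genes tested, in the 3 comparisons; red is called higher, blue called lower and gray not called. In LPS vs control 3 genes are red and 4 blue, in LPS + G-CDs vs control 4 are red and 4 blue, and in LPS + G-CDs vs LPS all 8 are gray.

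Addition of G-CDs to LPS left no member called different from LPS alone. Of the 8 genes, 0 were called higher, against 0.25% of all genes tested, and 0 lower, against 0.242%, by limma, and voom on recovered reads also called 0. At an unadjusted p under 0.05 there were 4 of 8, namely *Ptgs1*, *Alox5ap*, *Pla2g4a* and *Ptgs2*, against 15.2% of all genes tested. The groups did not overlap for 5 of 8, against 27.9% of all genes tested: *Ptgs1*, *Pla2g4a* and *Alox5ap* were the higher with LPS + G-CDs, and *Ptgs2* and *Ptges* the lower. The median log2 fold change was 0.01 over the 8 genes and 0.02 over all genes tested.

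*Ptgs2* stood at 1302, 953 and 539 FPKM in the 3 LPS + G-CDs libraries, or at 89.1%, 65.3% and 36.9% of the LPS mean. The mean of 931 ± 382 FPKM compares with 1461 ± 119 in LPS (SD, n = 3). All 3 libraries lay below the lowest LPS library, but replicate 1 was just under it and replicate 3 far below. This was −0.74 on the log2 scale (SE 0.29, 95% interval −1.40 to −0.08, limma adjusted p = 0.317). Without LPS + G-CDs replicate 1 it was −1.02 (limma adjusted p = 0.0586), and without replicate 3 it was −0.39 (adjusted p = 0.720), so replicate 3 carried much of the estimate. These are the libraries that stood apart by gene length. With the length trend removed the estimate was −0.72 (limma adjusted p = 0.280), close to the value above.

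*Ptges* stood at 6.18, 8.13 and 8.58 FPKM with LPS + G-CDs, or 64.6%, 85.1% and 89.8% of the LPS mean. The library with the most *Ptgs2* thus had the least *Ptges*. The log2 fold change was −0.30 (95% interval −0.60 to 0.00, limma adjusted p = 0.325), and it was −0.17 without LPS + G-CDs replicate 1 and −0.49 under TPM. The ratio of *Ptgs2* to *Ptges* FPKM was 211, 117 and 62.8 in these libraries and 145, 166 and 148 in the LPS libraries.

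*Ptgs1* stood at 2.08, 2.74 and 2.44 FPKM with LPS + G-CDs, or 153%, 202% and 179% of the LPS mean. It was still far below the control level of 17.3 ± 1.45 FPKM (SD, n = 3). Against LPS the difference was 0.54 on the log2 scale (SE 0.15, 95% interval 0.21 to 0.87, limma adjusted p = 0.199). *Ptgs2* made up 99.7% ± 0.146 of the summed cyclooxygenase FPKM, whose total was 934 ± 382 FPKM.

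*Alox5ap* stood at 17.5, 26.1 and 31.8 FPKM with LPS + G-CDs, between the LPS and the control libraries. These values were 120%, 179% and 218% of the LPS mean. Their log2 fold change was 0.71 (SE 0.23, 95% interval 0.19 to 1.23, limma adjusted p = 0.265). *Alox5ap* has the shortest summed exon length of the 10 genes, at 1420 bases. With the length trend removed, the estimate was 0.50 (limma adjusted p = 0.170). *Alox5* moved little, at 7.92, 8.14 and 7.78 FPKM, with a log2 fold change of 0.03 (95% interval −0.20 to 0.26, limma adjusted p = 0.869) whose sign turned under TPM. The ratio of *Alox5ap* to *Alox5* was 2.21, 3.21 and 4.08 in the LPS + G-CDs libraries, against 1.71 to 2.18 in LPS.

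*Pla2g4a* stood at 44.5, 46.2 and 38.4 FPKM with LPS + G-CDs, or 131%, 136% and 113% of the LPS mean. The log2 fold change against LPS was 0.33 (95% interval 0.05 to 0.61, limma adjusted p = 0.30), and 0.17 under TPM. *Hpgds* stood at 3.72, 3.37 and 3.63 FPKM, a log2 fold change of −0.08 (95% interval −0.43 to 0.27, limma adjusted p = 0.771). *Ptger4* stood at 2.41, 2.63 and 1.99 FPKM, a log2 fold change of −0.01 (95% interval −0.29 to 0.27, limma adjusted p = 0.964). The signs of the last 2 were not stable, since they turned once the length trend was removed.

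The members below the filter had few reads here too. *Tbxas1* had 23, 10 and 6 reads with LPS + G-CDs, and its ratio to LPS, scaled as above, was 0.729 (exact interval 0.467 to 1.13). *Ptger2* had 10, 12 and 14 reads, a ratio of 1.60 (exact interval 0.910 to 2.89). Both intervals, which cover counting error only, hold 1. For *Ptger2* every LPS + G-CDs library was above every LPS library, at 0.133 to 0.192 and 0.0697 to 0.111 FPKM. Without the filter, its limma adjusted p was 0.476 against LPS and 0.00432 against control. These p-values too come from values far below the 1 added before the log and do not measure counting error.

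**Figure D3:**
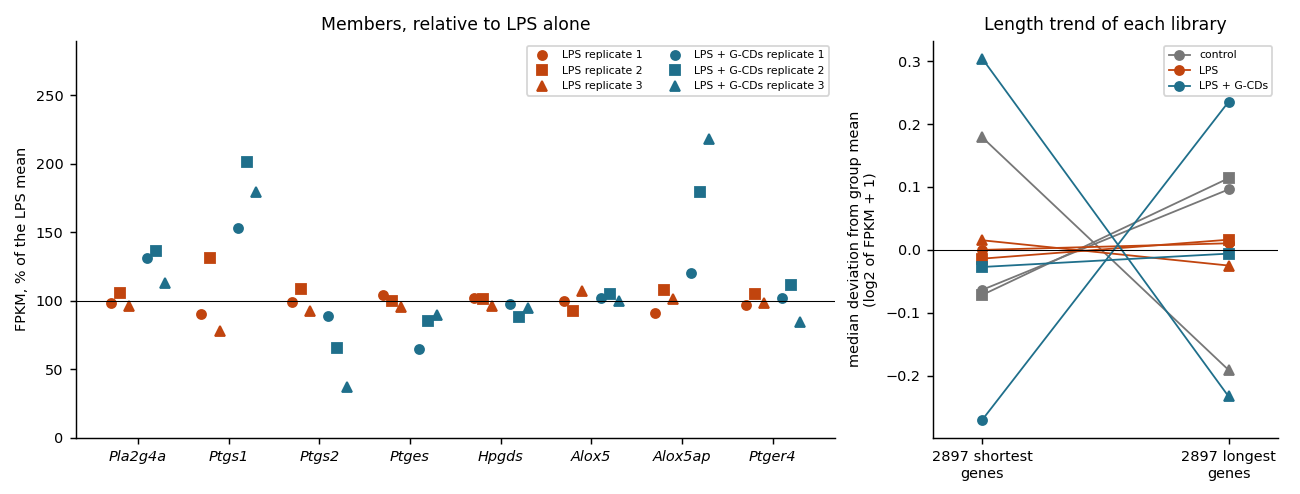
Left, FPKM of the 8 tested genes in each LPS and LPS + G-CDs library as a percentage of the LPS mean (y axis). Right, the median deviation of each library from its group mean, in log2 of FPKM + 1, for the 2897 shortest and the 2897 longest genes tested. *Ptgs2* spread from 36.9% to 89.1% and *Alox5ap* from 120% to 218% in LPS + G-CDs, and the steepest length lines belong to LPS + G-CDs replicates 1 and 3.

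The cells given LPS + G-CDs were also compared with control, using the same control libraries as the comparison of LPS with control. Of the 8 genes, 4 were called higher, against 12.8% of all genes tested, and 4 lower, against 12.4%. For all 8 genes the 2 groups did not overlap, against 34.3% of all genes tested. The median log2 fold change was −0.26, against 0.02 over all genes tested. Under TPM the median of all genes was −0.38, and the calls among all genes went from 1488 higher and 1439 lower to 761 and 3218. *Ptgs2* was 8.15 higher on the log2 scale (SE 0.29, limma adjusted p = 1.67e-07) and *Ptges* 2.50 higher (SE 0.13, adjusted p = 2.02e-06). *Ptgs1* was at −2.42 (SE 0.15, limma adjusted p = 4.30e-06), *Alox5* at −1.42, *Hpgds* at −1.10 and *Alox5ap* at −0.95, the last of which lost its call with the 6 libraries alone (adjusted p = 0.0554). *Pla2g4a* was called higher in this comparison alone, at 0.42 (SE 0.12, limma adjusted p = 0.0334), but the call was lost in 10 of 18 alternatives, among them leaving out control replicate 2 or 3, any LPS library, or LPS + G-CDs replicate 1 or 2, and the estimate was −0.01 under TPM. *Ptger4* was called at 0.61 (limma adjusted p = 0.00655), a call that TPM also removed.

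The wider set of eicosanoid genes was read from a list of 71 other genes of the pathway, of which 67 were found once in the table and 34 passed the filter. With LPS 7 were called higher and 15 lower (adjusted p over all genes tested), beside the 15.8% and 15.6% of all genes given above. Under TPM 3 were called higher, and without LPS replicate 2 or 3 the lower calls were 9. Their median log2 fold change was −0.36, against 0.02 over all genes tested. With LPS + G-CDs against LPS 1 was called higher and 0 lower, by limma and by voom, and 11 of 34 had an unadjusted limma p under 0.05, against the 15.2% of all genes given above. Against control, 7 were higher with LPS + G-CDs, beside 12.8% of all genes tested, and 7 lower, beside 12.4%. Under TPM these were 3 and 15, where 761 and 3218 of the 11585 genes were called.

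Upstream of the cyclooxygenases, 6 genes tested were listed with the phospholipases A2, 5 of them enzymes and 1 an activating protein, *Plaa*. With LPS 3 were called higher, *Pla2g5*, *Pla2g6* and *Plaa* (0.49, limma adjusted p = 0.0104), and 1 lower, beside the same shares of all genes. *Pla2g5*, a secreted phospholipase A2, stood at 23.5 ± 0.507 FPKM in control, 109 ± 0.549 in LPS and 97.8 ± 2.51 in LPS + G-CDs (SD, n = 3). Its log2 fold change with LPS was 2.17 (SE 0.10, limma adjusted p = 7.44e-07), so a secreted form rose where the cytosolic *Pla2g4a* was not called. *Pla2g6*, a calcium-independent phospholipase A2, rose by 1.17 (limma adjusted p = 9.27e-05). Of 8 genes that supply or store arachidonate, 2 were called higher with LPS, against 15.8% of all genes tested, and 4 lower, against 15.6%. *Acsl4*, which links arachidonate to coenzyme A, rose by 1.14 (limma adjusted p = 0.00457), a call that TPM removed. *Daglb*, a diacylglycerol lipase gene, was at −1.06 (limma adjusted p = 0.00201). *Fads1*, *Fads2* and *Elovl5*, which desaturate and elongate fatty acids on the way to arachidonate, were at −0.64, −0.70 and −0.65, all called.

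Of 7 other genes tested on the leukotriene-making side, among them *Cotl1*, whose product binds 5-lipoxygenase and is no enzyme, 3 were called lower with LPS, against 15.6% of all genes tested, and 0 higher, against 15.8%, and the 1 receptor gene tested was called lower. *Mgst2* and *Ltc4s*, whose products can both join glutathione to leukotriene A4, were at −1.66 (limma adjusted p = 0.000899) and −0.95 (adjusted p = 0.00416). *Ltc4s* was low, at 1.49 ± 0.349 FPKM in control and 0.307 ± 0.290 in LPS (SD, n = 3), with 9, 2 and 2 reads in the LPS libraries. Its estimate depends on the pseudocount, at −2.17 with 0.1 in place of 1. *Lta4h*, which makes leukotriene B4, was not called. *Cysltr1*, a receptor for cysteinyl leukotrienes, stood at 3.95 ± 0.754 FPKM in control, 1.88 ± 0.347 in LPS and 1.62 ± 0.426 in LPS + G-CDs, with log2 fold changes against control of −0.78 and −0.92, both called. *Ltb4r1*, a leukotriene B4 receptor gene, had only 12, 2 and 9 reads over the control, LPS and LPS + G-CDs libraries together and was not tested.

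Of the other prostanoid receptors 1 passed the filter. *Ptgir*, the prostacyclin receptor gene, stood at 8.94 ± 0.548 FPKM in control, 13.2 ± 1.07 in LPS and 16.2 ± 0.628 in LPS + G-CDs (SD, n = 3). It was higher than control in both, by 0.51 and 0.79 on the log2 scale (limma adjusted p = 0.0061 and 0.00065). *Ptgir* was thus more abundant than *Ptger4* in every library. *Ptger1* had 139, 78 and 59 reads per group, *Ptger3* 0, 1 and 0, and *Tbxa2r* 2, 2 and 1.

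Of 7 genes listed for the breakdown and export of prostaglandins and leukotrienes, 5 were called lower with LPS, against 15.6% of all genes tested, and 1 higher, against 15.8%. *Cbr3*, a carbonyl reductase gene, went from 5.41 ± 1.91 FPKM in control to 1.06 ± 0.115 in LPS (SD, n = 3), a log2 fold change of −1.60 (limma adjusted p = 0.0023). *Ptgr1* and *Cbr1*, whose products reduce prostaglandins, were at −0.82 and −0.81. *Abcc1*, an exporter of leukotriene C4, rose by 0.94 (limma adjusted p = 0.0322), a call lost in 8 of 18 alternatives, among them leaving out control replicate 2 or 3, any LPS library or LPS + G-CDs replicate 2. *Akr1b8*, an aldo-keto reductase gene, was lower with LPS, at −0.71 (limma adjusted p = 0.0246), and was the 1 gene of the list called between LPS + G-CDs and LPS. It stood at 25.9, 27.2 and 36.9 FPKM in control, at 17.8, 16.6 and 18.7 in LPS and at 63.9, 75.8 and 104 in LPS + G-CDs. The last group lay above both others, with a log2 fold change against LPS of 2.11 (SE 0.20, limma adjusted p = 0.00356) that stayed called in all 18 alternatives.

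A few other genes of the list are given for their values, none of them called between LPS + G-CDs and LPS. Over the 34 genes tested, 11 were higher and 4 lower without overlap, the lower ones being *Pla2g5*, *Pla2g6*, *Acsl4* and *Mboat7*. *Cbr3* stood at 4.27 ± 1.77 FPKM in LPS + G-CDs (log2 fold change against LPS 1.30, limma adjusted p = 0.111), *Ptgr1* at 4.38 ± 1.78 (0.73, adjusted p = 0.273) and *Akr1b3* at 56.3 ± 14.2 (0.87, adjusted p = 0.126). For each of these 3 genes all LPS + G-CDs libraries were above all LPS libraries, and replicate 3 was the highest. *Cbr1* (0.73, adjusted p = 0.273) and *Ptgr2* (0.26, adjusted p = 0.320) did not overlap with LPS either, as 27.9% of all genes tested did not. Without LPS + G-CDs replicate 1 the first 3 were called, at adjusted p of 0.0305, 0.0496 and 0.0366, and *Cbr1* and *Ptgr2* were not. The lengths of *Cbr3*, *Ptgr1* and *Akr1b3* were 1254, 2296 and 8384 bases, and with the length trend removed none of these 3 was called. *Ptgr1*, *Akr1b3*, *Cbr1*, *Ptgr2* and *Mboat7* are named here after their values were seen.

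Against control, the largest changes of the wider list with LPS + G-CDs were in *Pla2g5* at 2.01, *Akr1b8* at 1.40, *Abcc1* at 1.25 and *Pla2g6* at 0.95 among the higher genes. Among the lower ones they were in *Daglb* at −1.01, *Cysltr1* at −0.92, *Elovl5* at −0.89 and *Mgst2* at −0.88. All 8 were called, with limma adjusted p from 1.23e-06 for *Pla2g5* to 0.0278 for *Mgst2*. The *Mgst2* call was lost in 7 of 18 alternatives, among them leaving out any control library or LPS + G-CDs replicate 1 or 2, and that of *Abcc1* under TPM.

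**Figure D4:**
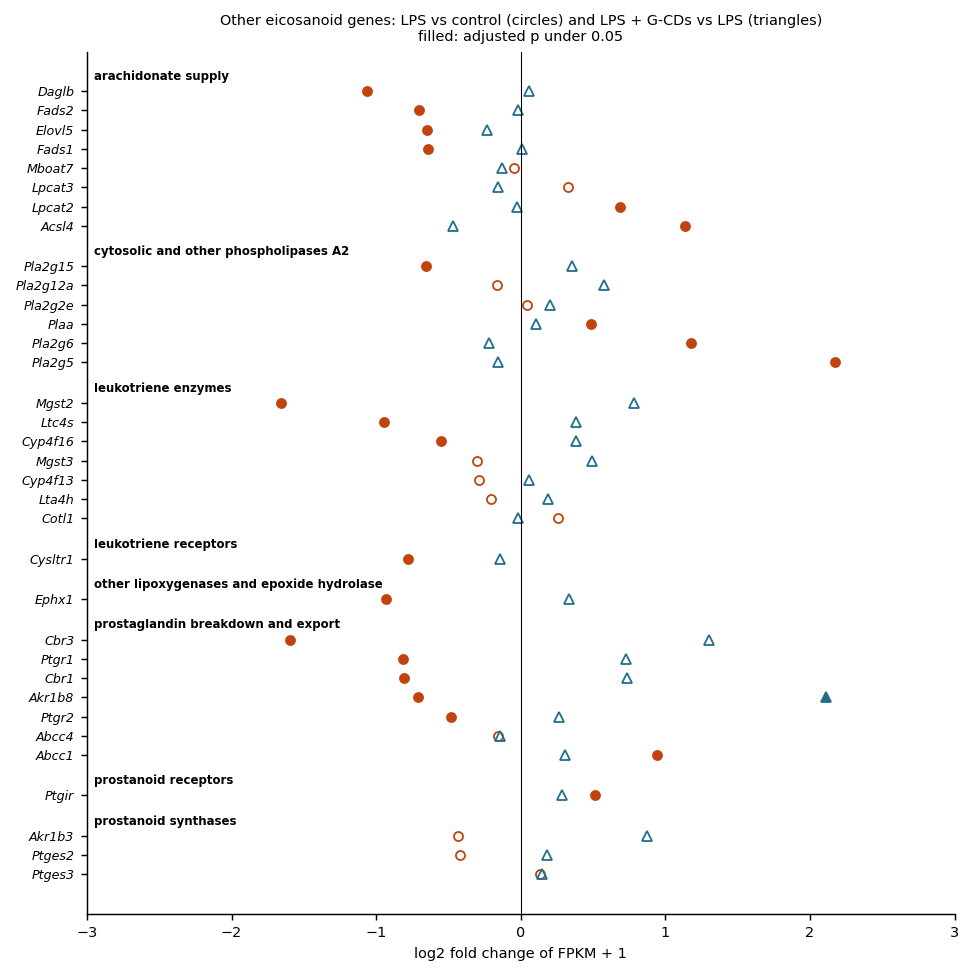
log2 fold changes of FPKM + 1 (x axis) of the 34 other eicosanoid genes tested, grouped by role, for LPS vs control (circles) and LPS + G-CDs vs LPS (triangles); filled symbols are called at an adjusted p under 0.05. With LPS 7 circles are filled to the right of 0 and 15 to the left, and *Akr1b8*, at 2.11, is the 1 filled triangle.

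The genes whose log2 levels most resembled those of a member over the 9 libraries were sought by Pearson correlation among 11584 other genes. For *Ptgs2* they were *Ddx58*, *Ifih1* and *Gsap*, each at r = 0.999. For *Ptges* they were *Csf2* (0.999), *Ccl2* (0.998) and *Cd40* (0.997), and for *Ptgs1* they were *Kcnab2* (0.996), *E2f2* (0.994) and *Ccne1* (0.994). The 9 libraries form 3 groups and share the step from control to LPS, so high values were common: 546, 523 and 371 genes lay above 0.95 for *Ptgs2*, *Ptges* and *Ptgs1*.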

How the data were processed

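mRNA of 9 RAW264.7 libraries was sequenced on an Illumina instrument, and the authors deposited FPKM values per gene with coordinates and lengths. The labels' processing notes name builds GRCm38 and mm10. The aligner, counter and strand setting are not given in the sources used here. All 10 members match GENCODE M21 coordinates.

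FPKM times length gave whole reads in 100% of values (tolerance 0.05 reads). limma 3.58.1 in R 4.3.3 (lmFit, eBayes with trend) was run on log2(FPKM + 1) in 1 model of 9 libraries, over 11585 genes at an FPKM of at least 1 in 3 libraries. The script was tested on simulated data. Alternatives were a pseudocount of 0.1, no filter, an FPKM minimum of 5, TPM, median-of-ratios scaling, the length trend removed (loess, span 0.5), voom on recovered reads, 6 libraries alone, a replicate block and leaving out each library.

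All members were to be named, with the wider-list genes called at 1.5-fold or more without overlap (at most 8 per comparison), the 3 genes most correlated with *Ptgs2*, *Ptges* and *Ptgs1*, and 4 macrophage markers. Others were added to describe their role. Members and lists were chosen with earlier results of these data known. Of the wider list, 3 genes were not found and 1 had 2 rows and was left out. Same-numbered libraries deviated together at r of 0.103 to 0.137 in LPS vs control, above the limit of 0.1 for every pair, and not for every pair elsewhere.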

Additional observations from a re-analysis of the deposited data

How the results depend on the processing

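Each result was recomputed under up to 18 alternatives. The LPS vs control calls of *Ptgs1*, *Ptgs2*, *Ptges*, *Alox5*, *Alox5ap* and *Hpgds* held in all 18, and no member was called between LPS + G-CDs and LPS in any. Against control with LPS + G-CDs, *Alox5ap* lost its call with the 6 libraries alone (limma adjusted p = 0.0554). Signs turned only for small estimates. *Pla2g4a* in LPS vs control was −0.17 under TPM and −0.00392 with the length trend removed, and −0.0071 under TPM in LPS + G-CDs vs control. Between LPS + G-CDs and LPS, *Alox5* was −0.13 under TPM and −0.016 to 0.077 with 1 library left out (−0.016 without LPS replicate 2), *Hpgds* 0.045 with the length trend removed, and *Ptger4* 0.12 with the length trend removed and −0.071 to 0.067 with 1 library left out (0.014 without LPS replicate 2, 0.067 without LPS + G-CDs replicate 3).

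Under TPM the members called higher with LPS + G-CDs against control went from 4 to 2, and the wider list went from 7 to 3 higher in LPS vs control and, in LPS + G-CDs vs control, from 7 to 3 higher and 7 to 15 lower. The FPKM minimum of 5, which tested 24 of the 34 genes, gave 8 in place of 15 lower in LPS vs control and 4 in place of 7 lower in LPS + G-CDs vs control, where the 6 libraries alone gave 3. Between LPS + G-CDs and LPS the length trend removed gave 2 in place of 1 higher (*Abcc1* added). With 1 library left out, the wider list gave 9 to 16 lower in LPS vs control (9 without LPS replicate 2 or 3), 3 to 7 lower in LPS + G-CDs vs control (3 without control replicate 2, 4 without control replicate 3 or LPS + G-CDs replicate 2) and 1 to 4 higher in LPS + G-CDs vs LPS (4 without LPS + G-CDs replicate 1, with *Akr1b3*, *Ptgr1* and *Cbr3* added). Apart from the fewer genes or libraries, the cause was not tested. Over all genes, the 29 higher and 28 lower calls between LPS + G-CDs and LPS became 106 and 150 without LPS + G-CDs replicate 1, 7 and 4 without replicate 2 and 12 and 17 without replicate 3.

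With a replicate block, 3 members were higher and 4 lower in LPS vs control, 0 and 0 in LPS + G-CDs vs LPS, and 4 and 4 in LPS + G-CDs vs control, as without it. *Ptgs2* between LPS + G-CDs and LPS had an adjusted p of 0.169 in the block, against 0.317 without it. The block changed no call of a member or of the wider-list genes named by the fixed rule, in the comparisons for which they were named. The numbers did not pair the libraries in the last 2 comparisons by the limit of 0.1 (lowest r 0.0801 and 0.0575), although in LPS + G-CDs vs LPS every library correlated best with its own number. *Ptgs2* had 34663 or more reads in each LPS-exposed library, and *Tbxas1* and *Ptger2* at most 23 in any library. An effect of depth was not tested.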

Other observations

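*Ptgs2os*, a long noncoding RNA gene on the minus strand (chromosome 1, 150074873 to 150099963) that starts just before the *Ptgs2* start and runs away from it, was below the filter and is named after its values were seen. It had 1, 1 and 2 reads in control, 41, 39 and 50 in LPS and 25, 32 and 41 in LPS + G-CDs. These are 0.0123 to 0.0259 FPKM, 0.652 to 0.794 FPKM and 0.399 to 0.674 FPKM. Among the LPS + G-CDs libraries its highest value was in replicate 3, the library with the least *Ptgs2*. The sources used here do not say whether counting used strand.

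*Gm13400*, a gene of 380 bases inside the span of *Ptges* on the same strand (chromosome 2, 30923978 to 30924357), had 0, 1 and 0 reads in control, 22, 26 and 47 in LPS and 26, 25 and 5 in LPS + G-CDs. It too is named after its values were seen. Its lowest value among the LPS-exposed libraries was in LPS + G-CDs replicate 3, where *Ptges* was the highest of its group.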
